A study of Mus musculus with 4 samples.

Results

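The genes described here code for the proteins that remove introns from messenger RNA. They were taken from the deposited expression table by symbol, as all protein-coding rows named for SR proteins (Srsf), heterogeneous nuclear ribonucleoproteins (Hnrnp), proteins of the small nuclear ribonucleoproteins (Snrp), the SF3a and SF3b complexes, the U2AF factor and the Prpf family. This gave 64 of the 17104 genes in the table, which were 9 SR genes, 20 hnRNP genes, 11 snRNP core genes and 24 other genes (3 Sf3a, 6 Sf3b, 2 U2af and 13 Prpf). Srsf2, Srsf12, Snrpn and U2af1l4 meet the symbol rule in the annotation and were not analysed here.

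Introns are removed by the spliceosome, a machine assembled anew on each transcript from small nuclear RNAs and proteins. The U1 particle reads the start of the intron, while U2AF and then the U2 particle with SF3a and SF3b read its end and the branch point, before the U4, U5 and U6 particles join with the Prpf proteins. SR proteins bind exons and mostly favor the use of nearby splice sites, whereas many hnRNPs bind introns or exon silencers and counter it. Genes of this machinery, SF3B1, U2AF1 and SRSF2 among them, are recurrently mutated in human myeloid neoplasms.

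The libraries came from YFP+, c-kit+ cells, sorted from mouse bone marrow 6 weeks after a secondary transplantation. The paper describes such cells as enriched for leukemia stem cells (LSCs), the fraction of an acute myeloid leukemia (AML) that can transplant the disease. The sorted cells are called LSCs below, as in the sample titles. There were 2 CD37 fl/fl and 2 CD37-/- libraries, all labelled as male and of strain C57. In both groups the leukemia was started from lineage-negative marrow of CD37 fl/fl, Cre+ mice by a retrovirus carrying MLL-AF9, a fusion oncogene, and YFP. The groups therefore share the floxed allele, the tamoxifen-inducible Cre and the oncogene. The methods give tamoxifen for the deletion of CD37, a tetraspanin membrane protein, and corn oil for controls. The sample titles call the CD37 fl/fl libraries WT, although the genotype label gives CD37 fl/fl. Whether a library was 1 mouse or a pool is not stated, so p-values measure the spread between these libraries only. The comparison asks which splicing genes differ in level between LSCs with and without CD37.

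Values were deposited as FPKM (fragments per kilobase of gene, scaled to library size). They became whole reads when multiplied by the span of each gene, introns included, and recovered totals ran from 15139063 to 22562837 reads per library. Long introns thus lower the FPKM of a gene, and genes are compared with each other only as a level, the recovered reads per kilobase of exon per 1000000 reads. Gene positions and exons are those of GENCODE M21 on GRCm38. Exon length is the union of the exons of all annotated transcripts of a gene, so it can exceed the length of any single transcript. Cd37, the targeted gene, had 56.6 and 46.8 FPKM in CD37 fl/fl and 23.2 and 22.9 FPKM in CD37-/- (log2 difference -1.12, SE 0.24). These reads cover the whole gene, floxed exons and others alike. The 13 myeloid markers in the table summed to 2732 and 3836 FPKM against 2714 and 2512 FPKM. Both CD37-/- libraries lay above both controls in 5 of them, Kit and Ptprc among them, and below in 3. Over all genes tested, 38.2% lay above and 23.7% below in this way. The 3 lower ones were the granule genes Mpo, Prtn3 and Ctsg. Mpo had 80.3 and 51.6 against 34.4 and 20.8 FPKM and Prtn3 had 411 and 489 against 307 and 256 FPKM. Ctsg had 403 and 1357 against 375 and 362 FPKM, while the groups overlapped in the granule gene Elane, at 1749.9 to 1883.8 FPKM. The B cell list summed to 12.8 and 15.4 FPKM against 8.46 and 6.64 FPKM, nearly all of it Cd79b, and its defining marker Pax5 was under 0.1 FPKM. The macrophage list summed to 12.8 FPKM in CD37 fl/fl 1 and to 2.31, 2.40 and 4.76 FPKM in the other libraries, and the megakaryocyte list to 7.84 and 3.75 FPKM against 6.12 and 14.1 FPKM. The T and NK cell and stromal lists summed to under 0.2 FPKM. Kit, which marks the sort gate, had 213, 460, 474 and 804 reads, a level of 1.56 to 3.99, and Flt3 and Cd34 were under 0.1 FPKM in every library. Of the 7 erythroid markers in the table, none overlapped between the groups and all were higher in CD37-/-, with list sums of 60.9 and 5.17 FPKM against 576 and 143 FPKM. The 6 proliferation markers summed to 94.2 and 119 FPKM against 165 and 181 FPKM, with 6 of 6 not overlapping. All 6 were higher in CD37-/-, with a smallest log2 difference of 0.09 (SE 0.23). The erythroid and proliferation counts stand beside 38.2% of all genes tested with both CD37-/- libraries above both controls. What part these differences have in the splicing genes was not tested, and in bulk samples fewer cells of a type and less RNA per cell cannot be told apart.

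Promoter sequences of 55 of the 64 genes, 73 start sites in all, were read from RefSeq on build GRCm38.p6, from 250 bases before to 50 bases after the start. They are rich in CpG, with a median of 25 CpG per promoter against 7 over all 32851 promoters of the same length. 5 are shown, for an SR gene that was higher in CD37-/- (Srsf5), the SR gene with a log2 difference below 0 (Srsf3), an hnRNP gene that was higher (Hnrnpab) and a pair of Sm ring genes (Snrpe and Snrpf). Capitals mark the motifs searched on both strands, which are CCGGAA for ETS factors, CCAAT for NF-Y, TATAAA for a TATA box, CACGTG for an E-box and GCGCATG for NRF1.
Srsf5 (chr12:80945249-80945548, plus strand): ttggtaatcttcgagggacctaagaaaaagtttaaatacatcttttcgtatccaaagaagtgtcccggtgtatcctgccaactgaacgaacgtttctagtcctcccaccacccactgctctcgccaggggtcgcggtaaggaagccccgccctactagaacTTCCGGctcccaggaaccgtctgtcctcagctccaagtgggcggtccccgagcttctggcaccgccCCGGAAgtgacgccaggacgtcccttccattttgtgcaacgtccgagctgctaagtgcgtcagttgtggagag
Srsf3 (chr17:29032410-29032709, plus strand): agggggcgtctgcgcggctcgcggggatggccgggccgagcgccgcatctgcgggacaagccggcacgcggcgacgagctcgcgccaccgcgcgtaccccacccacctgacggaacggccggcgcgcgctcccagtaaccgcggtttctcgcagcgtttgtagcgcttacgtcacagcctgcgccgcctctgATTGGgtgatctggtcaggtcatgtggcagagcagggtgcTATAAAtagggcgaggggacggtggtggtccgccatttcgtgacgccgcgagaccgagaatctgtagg
Hnrnpab (chr11:51606832-51607131, minus strand): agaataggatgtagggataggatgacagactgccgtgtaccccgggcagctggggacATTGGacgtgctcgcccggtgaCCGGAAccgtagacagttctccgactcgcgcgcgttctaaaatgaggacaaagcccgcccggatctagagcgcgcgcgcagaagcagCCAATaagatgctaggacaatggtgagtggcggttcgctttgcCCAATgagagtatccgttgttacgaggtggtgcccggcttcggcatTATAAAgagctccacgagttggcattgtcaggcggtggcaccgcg
Snrpe (chr1:133610231-133610530, minus strand): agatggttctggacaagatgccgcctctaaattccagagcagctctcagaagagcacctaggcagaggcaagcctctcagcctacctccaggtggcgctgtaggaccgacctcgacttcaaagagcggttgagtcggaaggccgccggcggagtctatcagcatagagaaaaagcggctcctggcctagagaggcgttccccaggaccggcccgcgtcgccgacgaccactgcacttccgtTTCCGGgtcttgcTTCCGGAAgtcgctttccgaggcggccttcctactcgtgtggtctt
Snrpf (chr10:93589609-93589908, minus strand): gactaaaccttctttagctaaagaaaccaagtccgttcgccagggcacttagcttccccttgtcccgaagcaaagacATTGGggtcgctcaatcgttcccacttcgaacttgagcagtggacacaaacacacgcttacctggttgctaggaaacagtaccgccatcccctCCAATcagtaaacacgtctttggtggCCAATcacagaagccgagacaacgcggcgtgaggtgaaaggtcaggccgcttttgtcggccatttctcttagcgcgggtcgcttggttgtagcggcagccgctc

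CCGGAA was present in 35 of the 73 promoters (47.9%) against 14.9% of all promoters, and CCAAT in 36 (49.3%) against 37.4%. TATAAA was in 5 (6.85%) against 13.6%, CACGTG in 11 (15.1%) against 7.15%, and GCGCATG in 5 (6.85%) against 3.91%. In the SR genes, 7 of 12 promoters held CCGGAA and 1 held TATAAA, that of Srsf3, 18 bases before its start. In the hnRNP genes CCAAT was the more frequent motif, in 17 of 27 promoters, and in the snRNP core genes CCGGAA was in 5 and CCAAT in 3 of 10. Srsf5 has CCGGAA 23 bases before its start and its reverse complement at 89 bases, Snrpe has copies that overlap each other near its start, and Snrpf has CCAAT at 80 and 54 bases. The 73 promoters belong to 55 genes, and all 32851 promoters to 27025 genes. Windows of start sites close to each other in a gene overlap, as in Srsf4, Sf3b2, U2af1 and Hnrnpa2b1. The same site can thus be counted more than once, and promoters are not independent of each other. A match of letters is a description of the window, not a bound site.

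**Figure D1:**
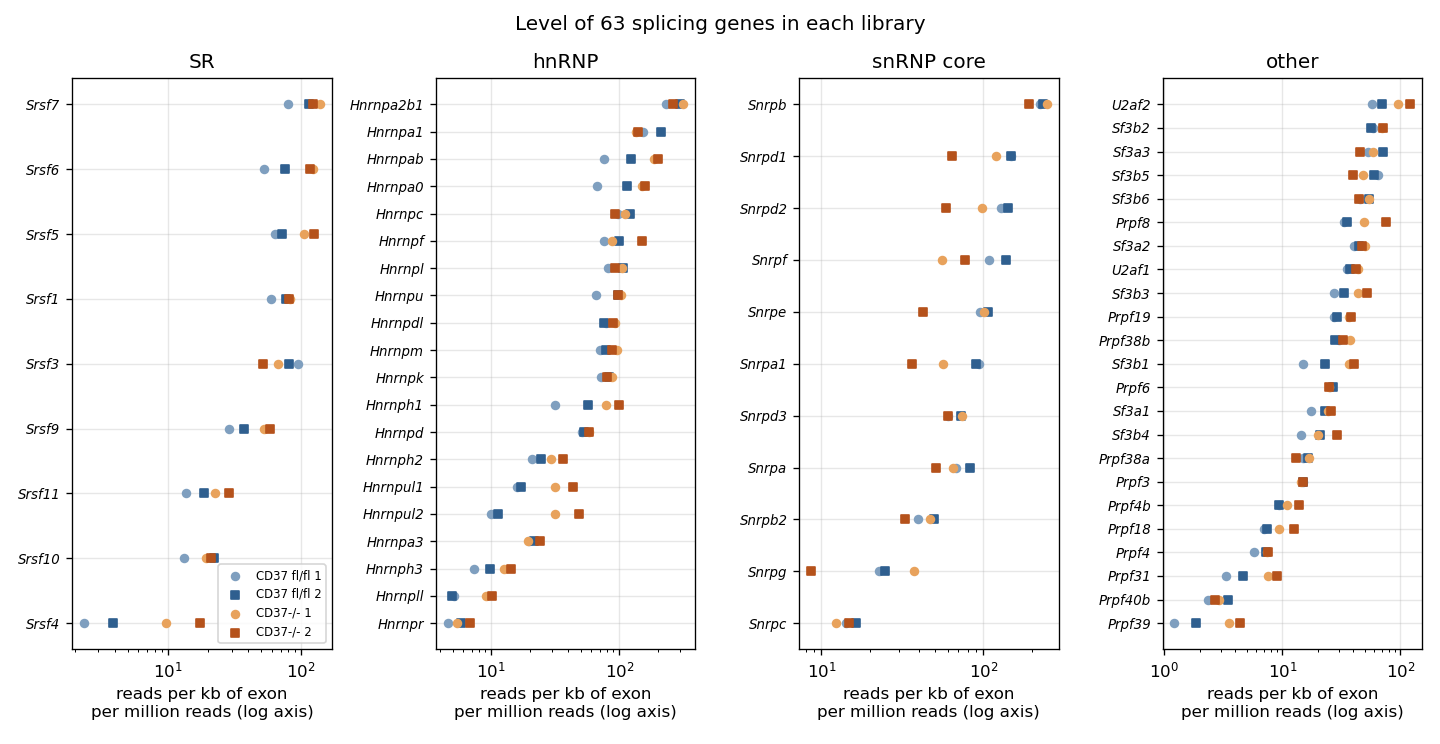
Level of 63 of the 64 splicing genes in each of the 4 libraries, as recovered reads per kilobase of exon per 1000000 reads on a log axis, with 1 panel per class. Blue points are CD37 fl/fl and orange points are CD37-/-, circles are replicate 1 and squares are replicate 2. The orange points of Srsf4, Hnrnpul2 and Sf3b1 lie to the right of the blue ones, and those of Snrpa1, Snrpf and Snrpd2 to the left.

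All 64 genes had reads in every library, and 63 reached the mean of 1 FPKM needed for the test, the exception being Prpf40b. No gene of the 63 had an adjusted p under 0.05 in limma, nor did any of the 6761 genes tested (0%), and the lowest adjusted p among the splicing genes was 0.0649, for Hnrnpul2. At an unadjusted p under 0.05, 17 of the 63 were higher in CD37-/- and 3 were lower. Over all genes tested, 16.1% were higher and 7.96% lower at that threshold. TPM rescaling changed the split to 31 higher and 1 lower, and in that scaling the median log2 difference of all genes moved from 0.11 to 0.49. In 33 genes both CD37-/- libraries were above both CD37 fl/fl libraries (38.2% of all genes tested), in 9 both were below (23.7%), and in 21 the groups overlapped. The higher count fell to 7 without CD37 fl/fl replicate 1 and to 6 without CD37-/- replicate 2. With 2 libraries against 2, an exact permutation test of a single gene cannot go below p = 0.333.

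**Figure D2:**
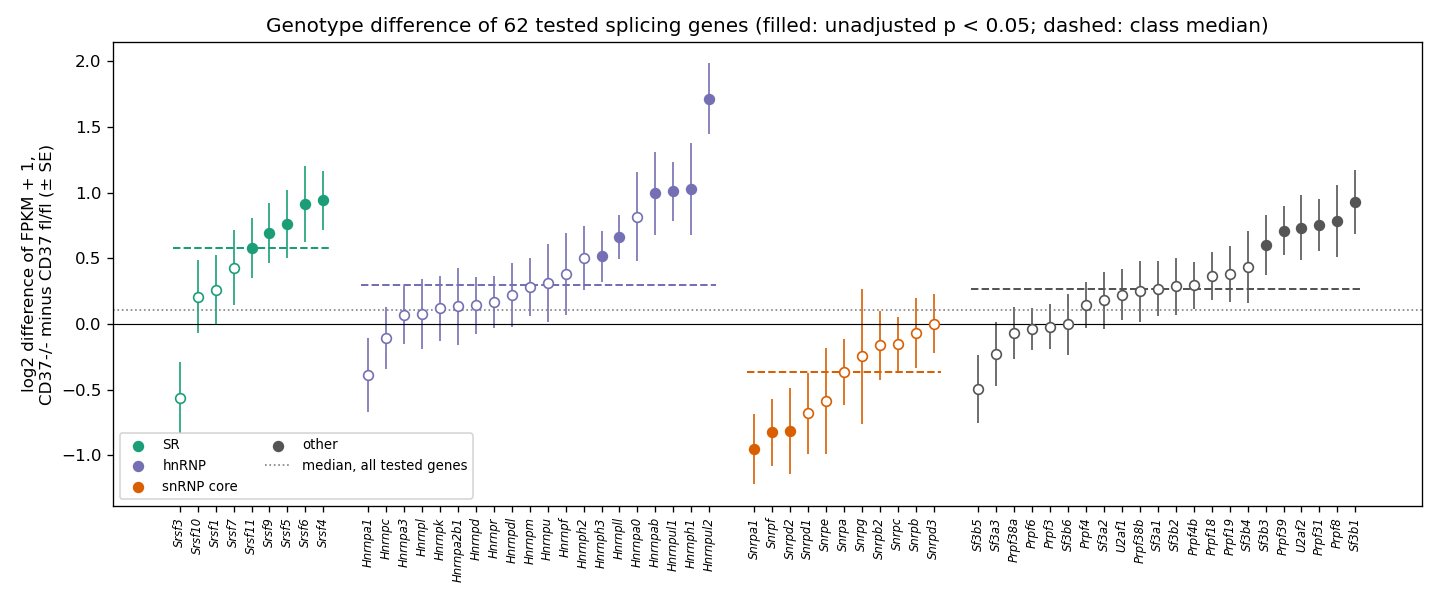
Difference between CD37-/- and CD37 fl/fl in log2(FPKM + 1) for 62 of the 63 tested splicing genes, with bars of 1 SE from limma, ordered within each class. Filled points have an unadjusted p under 0.05 (17 higher, 3 lower), dashed lines are medians of all tested genes of a class and the dotted line is the median of all 6761 genes tested, 0.11.

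The class medians had different signs. The median log2 difference was 0.58 over the 9 SR genes, 0.30 over the 20 hnRNP genes, 0.27 over the 23 other genes tested and -0.37 over the 11 snRNP core genes, beside 0.11 over all genes tested. The snRNP core median was -0.20 without CD37-/- replicate 2, -0.23 without CD37 fl/fl replicate 2 and -0.61 without CD37-/- replicate 1, and the hnRNP median was 0.46 without CD37 fl/fl replicate 2. Of the 9 SR genes 8 were above 0, of the 20 hnRNP genes 18, of the 23 others 17, and of the 11 snRNP core genes 1. Over all genes tested, 3978 of 6761 were above 0. The CD37 fl/fl libraries also differed from each other, since 55 of the 63 genes were higher in replicate 2 than in replicate 1 (87.3%, against 61.2% of all genes tested).

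The shares of each library on these genes show both differences. SR genes took 0.216% and 0.253% of the recovered reads in CD37 fl/fl, against 0.296% and 0.291% in CD37-/-. hnRNP genes took 0.692% and 0.883% against 0.968% and 0.969%, so that the gap between the CD37 fl/fl libraries was larger than that from the higher of them to CD37-/-. snRNP core genes took 0.228% and 0.248% against 0.209% and 0.147%. For the other genes the shares were 0.322% and 0.361% against 0.433% and 0.470%. In each class the groups did not overlap.

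**Figure D3:**
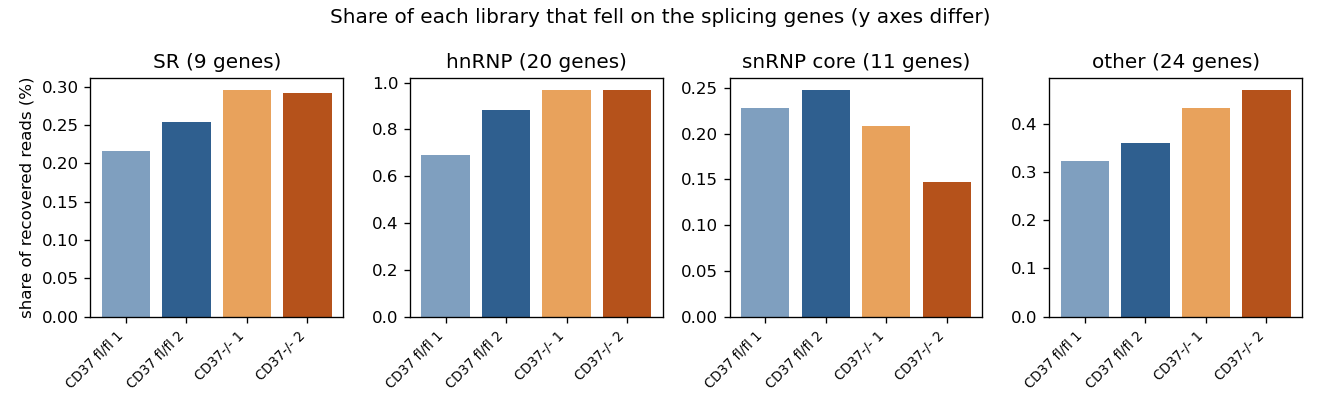
Share of the recovered reads of each library, in percent, that fell on the genes of each class, with 1 bar per library and a y axis from 0 that differs between panels. The SR, hnRNP and other bars are taller in CD37-/-, and the snRNP core bar is lowest in CD37-/- 2, at 0.147%.

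SR proteins carry an RNA-binding domain and a tail of arginine and serine repeats that is phosphorylated by SR kinases. Among them Srsf7, which acts in splicing and in export of messenger RNA, had the highest level, at 79.9 and 115 in CD37 fl/fl against 138 and 123 in CD37-/-. Its FPKM was 39.2 and 56.5 against 67.7 and 60.2, without overlap, but the log2 difference of 0.43 (SE 0.29) had an unadjusted p of 0.189.

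Of the SR genes, 5 were higher at an unadjusted p under 0.05, namely Srsf4, Srsf6, Srsf9, Srsf5 and Srsf11. Srsf4 (chr4:131873617-131901706), a large SR protein, had 0.297 and 0.493 FPKM in CD37 fl/fl and 1.23 and 2.19 FPKM in CD37-/-. It rests on 128 and 240 reads against 614 and 1395 reads, and its mean FPKM was 4.34-fold higher in CD37-/-, with a log2 difference of 0.94 (SE 0.23, unadjusted p = 0.00677, adjusted p = 0.115 in limma). The log2 difference of so low an FPKM is held down by the pseudocount of 1. Among the SR genes it had the lowest level.

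Srsf6 (chr2:162931528-162937121), which acts on alternative exons, had 44.8 and 64.7 FPKM against 106 and 99.4 FPKM, a log2 difference of 0.92 (SE 0.29). Srsf5, a regulator of alternative exons whose promoter is shown above, had 50.9 and 56.6 FPKM against 84.1 and 99.6 FPKM, a log2 difference of 0.76 (SE 0.26). Srsf9 had 8.02 and 10.5 FPKM against 14.7 and 16.2 FPKM (0.69, SE 0.23), and Srsf11 had 4.42 and 5.97 FPKM against 7.24 and 9.22 FPKM (0.58, SE 0.23). In each of these the CD37-/- libraries were on one side of both controls, with adjusted p-values between 0.115 and 0.205. With each library left out in turn, Srsf4 kept an unadjusted p under 0.05 (largest 0.0425), whereas 1 of the 5 genes did without CD37 fl/fl replicate 1 and 2 of the 5 without CD37-/- replicate 1 or without CD37-/- replicate 2.

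Srsf3 (chr17:29032628-29043373), the smallest SR protein and a proto-oncogene product, went the other way. Its FPKM was 69.2 and 59.6 in CD37 fl/fl against 49.2 and 38.0 in CD37-/-, without overlap, a log2 difference of -0.56 (SE 0.27, unadjusted p = 0.0851). It was the only SR gene below 0 in this fit. Srsf1, the founding SR protein, had 53.0 and 69.1 FPKM against 73.1 and 72.0 FPKM (0.26, SE 0.27), and Srsf10 had 6.55 and 10.9 FPKM against 9.60 and 10.3 FPKM (0.21, SE 0.28), where the groups overlapped.

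Among the hnRNPs, which package nascent transcripts, Hnrnpa2b1 had the highest level of all 64 genes, at 229 and 299 in CD37 fl/fl against 316 and 263 in CD37-/-. Its FPKM of 169 and 220 against 232 and 193 overlapped between the groups (log2 difference 0.14, SE 0.29). The 6 genes that were higher at an unadjusted p under 0.05 were Hnrnpul2, Hnrnpul1, Hnrnpll, Hnrnpab, Hnrnph1 and Hnrnph3, and none was lower at that threshold.

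Hnrnpul2 (chr19:8820010-8834143) and Hnrnpul1 (chr7:25721165-25754757) code for relatives of the scaffold protein hnRNP U. Hnrnpul2 had 5.01 and 5.65 FPKM in CD37 fl/fl and 15.9 and 24.5 FPKM in CD37-/-, 3.79-fold in the means. Its log2 difference of 1.71 (SE 0.27) was the largest of the 63 on the log2(FPKM + 1) scale, with an unadjusted p of 0.00082. Fitted to recovered reads by limma-voom, the difference was 1.88, below the 2.10 of Srsf4, whose fold of the means was also larger. Hnrnpul1 had 4.11 and 4.36 FPKM against 8.05 and 11.3 FPKM, a log2 difference of 1.01 (SE 0.23, unadjusted p = 0.00467). Hnrnpu itself had 46.0 and 68.2 FPKM against 71.6 and 68.1 FPKM, and its groups overlapped. A gene model on the same strand as Hnrnpul2, AC129217.1, overlaps it and had mean FPKM of 0.030 and 0.064.

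Hnrnpll (chr17:80029487-80062334), a known regulator of CD45 exon choice in lymphocytes, had 1.81 and 1.76 FPKM against 3.20 and 3.63 FPKM, with a log2 difference of 0.66 (SE 0.17). Ptprc, which codes for CD45, had 0.765 and 0.841 FPKM against 1.78 and 2.93 FPKM (0.87, SE 0.22), a gene level that says nothing about its exons. Hnrnpab had 31.1 and 50.4 FPKM against 76.7 and 83.4 FPKM (1.00, SE 0.32). Of the G-run binding H and F proteins, Hnrnph1 had 19.2 and 34.8 FPKM against 47.9 and 60.4 FPKM (1.03, SE 0.35), and Hnrnph3 had 2.40 and 3.21 FPKM against 4.12 and 4.70 FPKM (0.51, SE 0.20). Their relative Hnrnpf overlapped between the groups, at 9.06 and 11.9 FPKM against 10.5 and 18.1 FPKM.

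Hnrnpa1, a shuttling protein that represses many exons, was the only hnRNP with both CD37-/- libraries below both controls. It had 77.2 and 107 FPKM against 68.0 and 70.5 FPKM, a log2 difference of -0.39 (SE 0.28, unadjusted p = 0.222), and 28.2% of its 50-base windows also occur in other genes. Hnrnpa0 had 66.9 and 114 FPKM against 151 and 159 FPKM and just missed the threshold (0.82, SE 0.34, unadjusted p = 0.0542). Hnrnpk, a tumor suppressor in myeloid cells, had 38.0 and 43.6 FPKM against 46.6 and 42.2 FPKM, with a log2 difference of 0.12 and a 95% interval of -0.49 to 0.73. With each library left out in turn, Hnrnpul2 and Hnrnpul1 kept an unadjusted p under 0.05 (largest 0.00901 and 0.0339), and of the 6 higher hnRNPs 3 did without CD37 fl/fl replicate 1 and 2 without CD37-/- replicate 2.

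The other 8 hnRNPs lay between -0.11 and 0.50 on the log2 scale. Both CD37-/- libraries were above both controls in 4 of them, by small amounts, beside 38.2% of all genes tested. Hnrnph2, the X-linked relative of Hnrnph1, had 15.4 and 18.2 FPKM against 21.7 and 27.0 FPKM (0.50, SE 0.24, unadjusted p = 0.0858). Hnrnpm had 13.8 and 15.3 FPKM against 18.7 and 17.0 FPKM (0.28, SE 0.22), and Hnrnpdl had 62.4 and 60.1 FPKM against 72.6 and 70.7 FPKM (0.22, SE 0.24). Hnrnpd, also known as AUF1 and a binder of AU-rich messages, had 16.3 and 17.0 FPKM against 18.5 and 18.4 FPKM (0.14, SE 0.21). The groups overlapped in Hnrnpc, Hnrnpl, Hnrnpa3 and Hnrnpr. Hnrnpc, which binds uridine tracts, had 13.7 and 17.1 FPKM against 15.5 and 13.0 FPKM, and Hnrnpl, which binds CA repeats, had 35.1 and 46.2 FPKM against 45.3 and 39.97 FPKM. Hnrnpa3 had 10.4 and 11.4 FPKM against 10.3 and 12.8 FPKM, with 27.1% of its 50-base windows found elsewhere, and Hnrnpr had 2.08 and 2.66 FPKM against 2.45 and 3.13 FPKM.

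The snRNP core class holds the Sm proteins, which form a ring of 7 around the small nuclear RNAs (Snrpb, Snrpd1, Snrpd2, Snrpd3, Snrpe, Snrpf and Snrpg), the U1 proteins Snrpa and Snrpc and the U2 proteins Snrpa1 and Snrpb2. Snrpb had the highest level, at 222 and 232 in CD37 fl/fl against 246 and 191 in CD37-/-. Its FPKM of 55.0 and 57.4 against 60.8 and 47.1 overlapped, with a log2 difference of -0.07 (SE 0.26) that turned to 0.093 under quantile normalization and 0.31 under TPM rescaling.

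Snrpa1, Snrpf and Snrpd2 were the 3 lower genes. Snrpa1 (chr7:66059003-66074587), the U2 A' protein, had 19.2 and 18.3 FPKM in CD37 fl/fl and 11.5 and 7.33 FPKM in CD37-/-. The reads behind these values were 4581 and 4946 against 3176 and 2586. Its log2 difference was -0.95 (SE 0.27, unadjusted p = 0.0129, adjusted p = 0.135 in limma). Snrpf (chr10:93583029-93589706) had 14.0 and 17.8 FPKM against 7.20 and 9.95 FPKM (-0.82, SE 0.25, unadjusted p = 0.0189), and 21.3% of its 50-base windows occur elsewhere. Snrpd2 (chr7:19149722-19153542) had 88.4 and 97.1 FPKM against 67.6 and 40.5 FPKM (-0.81, SE 0.33, unadjusted p = 0.0493). All 3 had both CD37-/- libraries below both controls. None kept an unadjusted p under 0.05 with every library left out in turn: 1 of the 3 did without CD37 fl/fl replicate 1, without CD37 fl/fl replicate 2 or without CD37-/- replicate 2, and the p of Snrpd2 reached 0.194.

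The lower values of the Sm ring lay mostly in a single library, with Snrpf as an exception. On the log2 scale Snrpf was -1.03 from the CD37 fl/fl mean in CD37-/- 1 and -0.61 in CD37-/- 2. In CD37-/- 2 all 7 genes were below the CD37 fl/fl mean, with a median of -1.06 on the log2 scale, whereas in CD37-/- 1 only 4 of 7 were, with a median of -0.01. Of the class of 11, 11 were below in CD37-/- 2 (median -0.61) and 7 in CD37-/- 1 (median -0.20). Snrpg was 4.41 and 4.81 FPKM in CD37 fl/fl, 7.33 FPKM in CD37-/- 1 and 1.69 FPKM in CD37-/- 2, so that the controls lay between the CD37-/- libraries. Snrpe was 20.4 and 22.7 FPKM against 21.4 and 9.09 FPKM, and Snrpd1 was 12.5 and 12.6 FPKM against 10.2 and 5.40 FPKM. Snrpd3 overlapped, at 10.5 and 12.7 FPKM against 12.8 and 10.5 FPKM. The U1 protein Snrpa had 21.7 and 26.5 FPKM against 20.7 and 16.3 FPKM (-0.37, SE 0.25), without overlap. Its partner Snrpc had 6.69 and 7.69 FPKM against 5.81 and 6.96 FPKM, and the U2 protein Snrpb2 had 11.5 and 14.4 FPKM against 13.6 and 9.49 FPKM, where the groups overlapped. The median log2 difference of the ring was -0.59, which became -0.01 without CD37-/- replicate 2 and -1.06 without CD37-/- replicate 1.

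**Figure D4:**
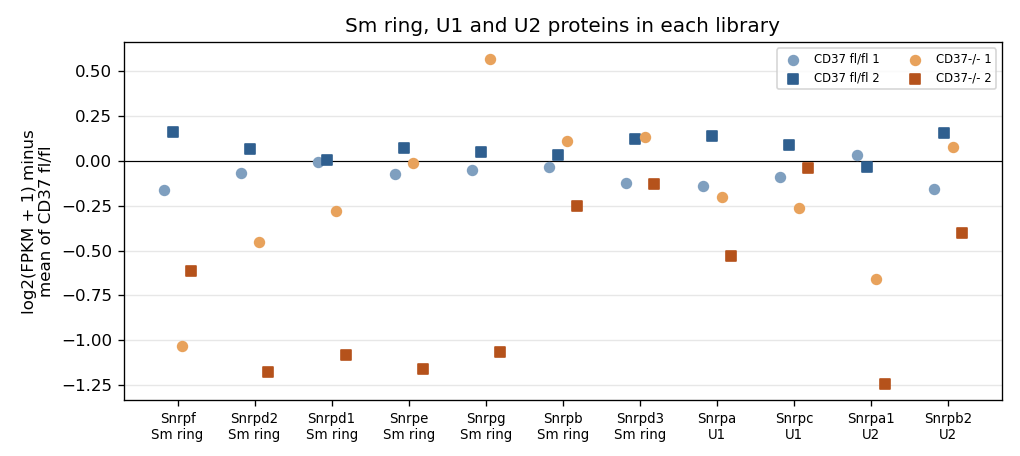
Difference of each library from the mean of the 2 CD37 fl/fl libraries in log2(FPKM + 1), for the 7 Sm ring genes and the 4 U1 and U2 protein genes. The dark orange squares (CD37-/- 2) lie below 0 for all 11 genes, and the light orange circles (CD37-/- 1) for 7 of them, with Snrpg above all other points.

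Among the other genes, U2af2, the large U2AF subunit that binds the pyrimidine tract, had the highest level, at 57.3 and 69.4 against 95.9 and 121. It had 13.2 and 16.0 FPKM in CD37 fl/fl and 22.2 and 28.0 FPKM in CD37-/- (0.73, SE 0.25, unadjusted p = 0.0263). U2af1, the small subunit that contacts the AG at the end of the intron, had 7.72 and 8.17 FPKM against 9.68 and 9.21 FPKM, without overlap but with a log2 difference of 0.22 (SE 0.19).

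SF3b holds the branch point. Its largest protein, Sf3b1 (chr1:54985169-55027481), had 3.99 and 6.14 FPKM in CD37 fl/fl and 9.81 and 10.9 FPKM in CD37-/-, 2.05-fold in the means and 0.93 on the log2 scale (SE 0.24, unadjusted p = 0.00984, adjusted p = 0.13 in limma). Sf3b3, a scaffold of the same complex, had 8.22 and 9.99 FPKM against 13.0 and 15.7 FPKM (0.60, SE 0.23). Its smallest subunit Sf3b5 had 64.7 and 59.4 FPKM against 48.6 and 39.3 FPKM, without overlap in the other direction (-0.49, SE 0.26, unadjusted p = 0.105). Log2 differences within this complex thus had both signs. Sf3b2 had 18.7 and 17.7 FPKM against 22.1 and 22.8 FPKM (0.29, SE 0.22), without overlap. Sf3b4 had 5.95 and 8.52 FPKM against 8.23 and 12.1 FPKM, with 43.6% of its 50-base windows in another gene, and Sf3b6, which touches the branch point adenosine, had 12.8 and 15.2 FPKM against 15.4 and 12.6 FPKM. In SF3a, which joins SF3b to the U2 particle, Sf3a1 had 4.87 and 6.37 FPKM against 6.68 and 7.20 FPKM (0.27, SE 0.21) and Sf3a2 had 16.0 and 17.7 FPKM against 19.8 and 18.6 FPKM (0.18, SE 0.22). Sf3a3 overlapped, at 8.31 and 11.3 FPKM against 9.16 and 7.20 FPKM (-0.23, SE 0.24). No SF3a gene passed the unadjusted threshold.

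The Prpf genes act mostly in and around the U4, U5 and U6 particles. Prpf8, the protein at the heart of the catalytic center, had 10.9 and 11.7 FPKM in CD37 fl/fl and 16.2 and 25.0 FPKM in CD37-/- (0.78, SE 0.27, unadjusted p = 0.0303). Prpf31, which bridges U4 and U6 to U5, had 1.46 and 2.03 FPKM against 3.31 and 3.92 FPKM (0.75, SE 0.19), and Prpf39, a U1-associated protein, had 0.538 and 0.823 FPKM against 1.55 and 1.95 FPKM (0.71, SE 0.19). In all 3 both CD37-/- libraries lay above both controls. Prpf39 had 223 and 386 reads against 743 and 1192 reads, and Prpf31 had 279 and 440 reads against 734 and 1108 reads. Prpf6 had 1.53 and 1.61 FPKM against 1.503 and 1.501 FPKM, with a log2 difference of -0.04 that became 0.28 under TPM rescaling. Of the 6 higher genes outside the SR and hnRNP classes, Sf3b1 and Prpf39 kept an unadjusted p under 0.05 with each library left out in turn (largest 0.0495 and 0.0459), and 3 did without CD37 fl/fl replicate 1 and 2 without CD37-/- replicate 2.

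The other 8 tested Prpf genes lay between -0.07 and 0.38 on the log2 scale. Prpf19, a ubiquitin ligase of the active spliceosome, had 13.9 and 14.8 FPKM against 18.5 and 19.5 FPKM (0.38, SE 0.21, unadjusted p = 0.127). Prpf18, a second-step factor, had 1.22 and 1.31 FPKM against 1.66 and 2.20 FPKM (0.37, SE 0.18, unadjusted p = 0.089). The kinase Prpf4b had 2.56 and 2.57 FPKM against 3.01 and 3.76 FPKM (0.29, SE 0.18). These 3, Prpf38b (23.4 and 21.9 FPKM against 29.3 and 25.2 FPKM) and Prpf4 (1.79 and 2.25 FPKM against 2.29 and 2.35 FPKM) did not overlap between the groups. In all of them both CD37-/- libraries lay above both controls, beside 38.2% of all genes tested. The groups overlapped in Prpf3, a U4 and U6 protein, at 3.27 and 3.26 FPKM against 3.15 and 3.27 FPKM. They also overlapped in Prpf38a, at 4.89 and 5.39 FPKM against 5.48 and 4.28 FPKM. Prpf40b, below the filter, had 0.530 and 0.776 FPKM against 0.655 and 0.602 FPKM.

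Exon length moved with these differences. The median summed exon length was 2.62 kb in the snRNP core class, 4.81 kb in SR genes, 5.90 kb in hnRNP genes and 5.66 kb in the other genes. Over all tested protein-coding genes, the median log2 difference was -0.45 below 1 kb (224 genes), -0.23 from 1 to 2 kb (803 genes), 0.07 from 2 to 4 kb (2074 genes) and 0.23 from 4 kb upward (2667 genes). The splicing genes in the last 2 bins had medians of 0.0036 (21 genes) and 0.28 (37 genes). Across the 63 genes the correlation of log2 exon length with the log2 difference was r = 0.40 (Spearman's rho 0.37), and across 5768 protein-coding genes r = 0.32 (rho 0.33). These are correlations across genes that share the same 4 libraries, and genes are not independent replicates. In the shortest bin the median of all genes was -0.26 in CD37-/- 1 and -0.64 in CD37-/- 2. The part of exon length in the values of the snRNP core and SR genes was not tested.

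**Figure D5:**
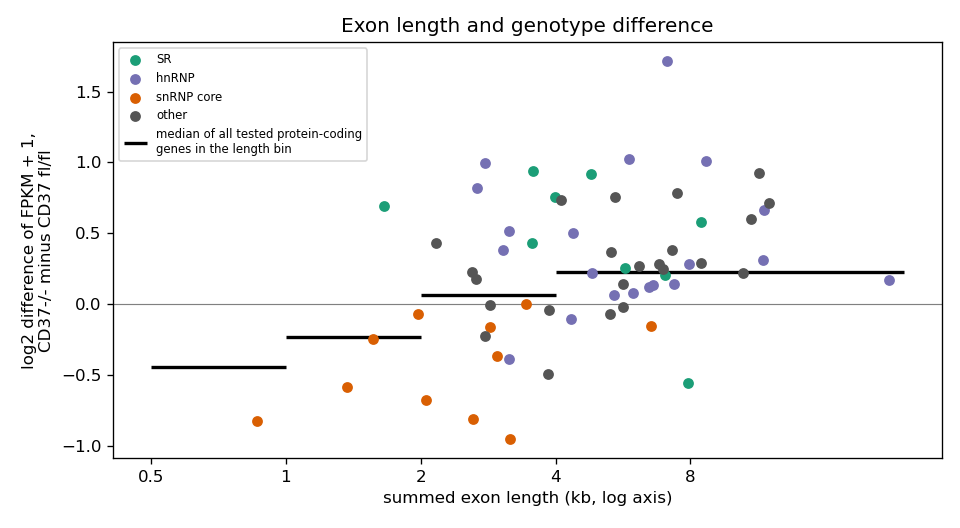
Summed exon length in kilobases (log axis) against the difference between CD37-/- and CD37 fl/fl in log2(FPKM + 1), for the 63 tested splicing genes colored by class. Black lines are the medians of all tested protein-coding genes in 4 length bins, from -0.45 below 1 kb to 0.23 from 4 kb upward, and the snRNP core points at 2 to 4 kb lie at or below the line of that bin.

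Of 147 further genes of the splicing machinery in the table, 119 were tested, and 24 were higher and 7 lower at an unadjusted p under 0.05, with a median log2 difference of 0.11, that of all genes tested. The counts over these genes and over the groups of them given next stand beside 16.1% higher and 7.96% lower of all genes tested, and no group was tested against that share. The largest counts were in SR-related proteins and SR kinases, with 6 of 13 higher and a median of 0.39, and in other RNA-binding regulators, with 8 of 17 higher and a median of 0.31. Clk1, a kinase that phosphorylates SR proteins, had 7.33 and 7.76 against 13.7 and 13.6 FPKM. Clk4, another such kinase, had 3.23 and 2.82 against 5.74 and 6.06 FPKM. The SR kinase Srpk1 went the other way without overlap, at 5.85 and 8.58 against 5.39 and 5.05 FPKM (-0.38, SE 0.23). Ptbp1, which represses exons by binding pyrimidine tracts, had 2.25 and 3.56 FPKM in CD37 fl/fl and 12.5 and 23.8 FPKM in CD37-/-, a log2 difference of 2.25 (SE 0.35, unadjusted p = 0.000795, adjusted p = 0.0649 in limma). The RNA helicase Dhx9 had 1.51 and 2.80 FPKM against 6.09 and 9.20 FPKM (1.46, SE 0.29).

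Factors that work beside SF3b also included higher genes. Cherp, a U2-associated protein, had 2.11 and 3.50 FPKM against 5.94 and 9.09 FPKM (1.16, SE 0.28), and the splicing helicase Dhx15 had 2.84 and 4.79 FPKM against 7.60 and 9.59 FPKM (1.02, SE 0.27). In the complex built around Prpf19, 2 of 12 were higher (Snw1 and Wbp11) and 1 was lower, with a median of -0.02. Helicases and second-step factors had 2 of 10 higher (median 0.26), factors of the 3' splice site 2 of 12 higher and 1 lower (median 0.19), and factors of U1 and the 5' splice site 3 of 7 higher (median 0.32).

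Proteins specific to single particles had 1 of 13 higher and 2 lower (median -0.22), the minor spliceosome 1 of 8 lower (median -0.01) and the snRNP assembly factors 1 of 10 lower (median -0.0062). The 7 lower genes were Lsm2, Txnl4a, Usp39, Bud31, Phf5a, Scnm1 and Gemin7. The 10 Lsm genes, Sm-like proteins of which some form the ring of U6, had a median of -0.19 with 1 lower, Lsm2 at 30.1 and 33.4 FPKM against 23.5 and 15.0 FPKM. Phf5a, a small protein of the SF3b complex that carries no Sf3b symbol, had 32.2 and 32.5 FPKM against 24.2 and 15.9 FPKM (-0.69, SE 0.28), and the U5 protein Txnl4a had 4.29 and 4.45 FPKM against 3.04 and 1.85 FPKM (-0.66, SE 0.22). Scnm1 of the minor spliceosome had 18.1 and 15.5 FPKM against 10.4 and 8.40 FPKM (-0.78, SE 0.23), and Gemin7, of the complex that loads Sm rings onto RNA, had 8.30 and 6.10 FPKM against 4.91 and 4.00 FPKM (-0.58, SE 0.23). The exon junction complex had a median of -0.13 over 7 genes with no call in either direction.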

How the data were processed

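Poly(A) RNA of sorted LSCs was sequenced with a kit that marks strand, and whether counting used strand is not stated. The authors deposited FPKM values per gene, 1 column per library, without pooling. The submitters' processing notes name fastp 0.20.1, STAR 2.7.7a, featureCounts 2.0.0, edgeR and build mm39, with no role given. Names, spans and exons were taken from GENCODE M21 on GRCm38, which matched 17045 of 17104 genes and gave whole reads (within 0.05 of a whole number) for 99.0% of values per library, where chance gives 10%. With exon length instead, 12.6% to 13.3% of low values were whole. Recovered reads were used for depth, levels and alternatives.

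The 6761 genes whose mean reached 1 FPKM were tested as log2(FPKM + 1) with limma 3.58.1 (lmFit, eBayes with trend; R 4.3.3), without a block, with Benjamini-Hochberg adjustment over all of them. Log2 differences are on this scale and understate those of low genes. The fit was tested on simulated data. Other steps used Python 3.11.15 with matplotlib 3.10.9, scipy 1.17.1, numpy 2.4.6 and pandas 2.3.3.

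The members and lists were chosen with earlier results of these data known. Genes named are, per class, the 3 with the lowest unadjusted p in each direction among those without overlap, the one with the highest level, Sf3b1, U2af1, Prpf8, Hnrnpk, Hnrnpa1, Srsf3 and Snrpb, and, of each further list, from the 2 first per direction. The further genes named were chosen after their values were seen. Genes sharing over 20% of their 50-base windows with other genes were Hnrnpa1, Hnrnpa3, Hnrnpf, Sf3b4, U2af1 and Snrpf. 3 members overlap a gene on the same strand and 19 a gene on the other. A planned summary of protein sequences was not run. 1 member, 1 further gene and 1 marker entered the counts, medians and sums but are not reported here by themselves. Alternatives were no filter beyond a value above 0, a mean of at least 5 FPKM, a pseudocount of 0.1, quantile normalization, TPM rescaling, the upper quartile, FPKM with exon length, limma-voom on recovered reads, robust eBayes, eBayes with no trend, a replicate block, each library left out and a minimum absolute log2 difference of 1.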

Additional observations from a re-analysis of the deposited data

How the results depend on the processing

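An adjusted p under 0.05 was reached by 1 of 50 splicing genes with a mean of at least 5 FPKM. With robust estimation it was reached by 1 of 63, and the gene was Hnrnpul2 in both. Over all genes tested, the counts were 45 of 3118 with a mean of at least 5 FPKM and 88 of 6761 with robust estimation. The count of splicing genes was 0 under the other alternatives run on all 4 libraries. The higher count of 17 became 11 with a mean of at least 5 FPKM, 31 with TPM rescaling, 3 with an absolute log2 difference of at least 1, and 6 to 15 with each library left out. The lower count of 3 became 1 with TPM rescaling, 0 with that minimum difference, and 1 to 5 with each library left out. TPM rescaling moved the medians to 1.01 (SR), 0.68 (hnRNP), -0.0022 (snRNP core) and 0.67 (other), while the median of all genes moved to 0.49. The hnRNP median ran from 0.21 to 0.46 and the snRNP core median from -0.61 to -0.20 with each library left out, and the median of the other genes was 0.16 with quantile normalization, where all genes were at -0.02. Among the members named by the rule given above, the sign turned for Hnrnpa2b1 with libraries left out (-0.053 to 0.33). It also turned for Prpf6 with TPM rescaling (0.28). For Snrpb it turned with quantile normalization (0.093), TPM rescaling (0.31) and libraries left out (-0.25 to 0.11). Other members changed sign as well, as Snrpg was at 0.57 without CD37-/- replicate 2 and at -1.06 without CD37-/- replicate 1. The cause was not tested.

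No label says that replicate numbers pair the libraries, and deviations of equal numbers did not go together (correlation -0.04). With the replicate block, 17 splicing genes were higher and 2 lower, 0 had an adjusted p under 0.05, and 73 of all genes did. Of the 17 higher genes, 16 were shared with limma-voom and 6 remained without CD37-/- replicate 2. Depth limits the lowest genes most, and Srsf4 had 128 reads in its lowest library.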
